A study of Mus musculus with 4 samples.

Results

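Tudor domains are small folds that bind methylated arginine or lysine, and the germline members of the family use them to hold PIWI proteins and their RNA-processing partners together in germ granules. PIWI proteins carry piRNAs, small RNAs that guide the silencing of transposons, and their arginines are methylated by PRMT5 before Tudor proteins dock on them. In the male germ line these granules are the cement between mitochondria and the piP-bodies of fetal and neonatal cells and, later, the chromatoid body of spermatids. The family described here has 10 genes: Tdrd1, Tdrd3, Tdrd5, Tdrd6, Tdrd7, Tdrd9, Tdrd12, Tdrkh, Rnf17 and Stk31. They were taken by symbol from a table of 43998 entries, and each of the 10 had 1 entry.

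The values come from THY1+ spermatogonia of C57BL/6 mice at postnatal day 4, drawn from whole testis with beads that bind CD90.2, the THY1 antigen. Control animals were compared with animals whose germ cells were impaired in retinoic acid signalling, with 2 libraries of each genotype. Retinoic acid is the vitamin A product that starts spermatogonial differentiation. The labels name neither the altered gene nor the promoter or Cre line used, and do not say whether animals were pooled. The deposited table gives 1 combined RPKM value (reads normalised for transcript length and library depth) for each genotype, so no difference below could be set against a spread between libraries, and there is no SD, n or p-value. Differences are log2((mutant RPKM + 1) / (control RPKM + 1)) unless a plain ratio is named, a scale that makes the difference of a low gene look smaller. Low values stepped in whole reads, which put about 56.0 M control and 57.3 M mutant reads behind the columns if no other scaling entered them. On that basis the members rested on between 339 and 8812 control reads each, taken over the longest annotated transcript. The 95% intervals given with mutant to control ratios are exact binomial intervals on such reads and cover counting error only.

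The label of the mutant was read first from genes of the retinoic acid response. Stra8, a direct retinoic acid target, stood at 45.2 (control) and 8.60 RPKM (mutant), and Kit, a receptor of differentiating spermatogonia, at 27.3 and 9.65 RPKM. The receptor gene Rara was at 20.6 and 19.4 RPKM and Rarg at 5.22 and 13.8 RPKM. Zbtb16, a factor of undifferentiated spermatogonia, was at 24.4 and 53.7 RPKM, and Gfra1, the GDNF co-receptor, at 35.9 and 14.2 RPKM. The cells carried the germ cell markers Dazl (274 and 353 RPKM) and Tex19.1 (164 and 203 RPKM). They also carried markers of other testis cells, which were lower in the mutant: all 12 macrophage genes, all 5 Leydig cell genes, 9 of 10 Sertoli cell genes and all 5 fibroblast genes in the comparison. Of 7 myoid and endothelial genes 5 were lower, with a median of only -0.20, and the endothelial genes Kdr (2.71 and 3.45 RPKM) and Tek (1.89 and 2.19 RPKM), named after their values were seen, were higher. Macrophage and Leydig cell markers were the farthest apart, with summed levels 2.74 and 2.90 times as high in control as in mutant (4787 and 1750 RPKM, and 482 and 166 RPKM). The most abundant were Lyz2 (1339 and 428 RPKM) and Tyrobp (677 and 230 RPKM) of macrophages, and Hsd3b1 (266 and 94.7 RPKM) and Cyp17a1 (148 and 42.7 RPKM) of Leydig cells. Sertoli cell markers (438 and 212 RPKM), fibroblast markers (186 and 106 RPKM) and myoid and endothelial markers (104 and 54.9 RPKM) were closer, at 2.07, 1.75 and 1.90 times. They were led by Clu (188 and 81.8 RPKM) and Inha (80.2 and 41.1 RPKM), by Igf1 (59.7 and 28.1 RPKM) and Col1a2 (56.8 and 33.8 RPKM), and by the myoid genes Acta2 (a log2 difference of -1.37) and Tagln (10.5 and 6.42 RPKM). No gene of any of these lists was at 0 in either genotype. In bulk RNA, fewer cells of a type and less RNA per cell cannot be told apart, and the part of these shifts in the Tudor values was not tested.

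In the values as deposited, the 9 germline members of the Tudor family were higher in the mutant and the broadly expressed Tdrd3 was lower, with Tdrd12 and Tdrkh turning to slightly lower when the mutant values were rescaled to germ cell identity genes. Their difference was above 0 for 9 of 10 members, against 50.4% of the 16473 genes that reached 1 RPKM in at least one genotype and 44.2% of the 12204 protein-coding genes among them. That rescaling sets the median of a list of germ cell identity genes to 0 and lowers every mutant value by the same factor: 7 of 10 members and 24.1% of all genes then lay above 0. The family's median exceeded that of all genes by 0.56 as deposited and by 0.55 after it. A common factor can change this gap only through the pseudocount, so the second value adds no further support. The median difference of the 10 was 0.57, from -0.33 to 0.93, beside 0.005 for all genes and -0.06 for protein-coding genes. Summed over the family, 232 RPKM in control became 350 RPKM in mutant, a ratio of 1.51. No member differed by 2-fold or more in either direction, where 4.4% of all genes were higher and 4.35% lower by that rule. With a 1.5-fold rule, chosen after the values were seen, 5 members were higher, against 12.7% of all genes and 6.76% of protein-coding genes. The number was 6 with a pseudocount of 0.1 or 0.5 RPKM, where 17.8% and 15.2% of all genes passed. It was 3 with the trend of differences with transcript length and GC content removed, where 6.96% of protein-coding genes passed. After the germ cell rescaling it was 0, where 5.21% of all genes passed. Tdrd6 entered the comparison through its mutant value alone, so its direction in these counts follows from the filter.

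**Figure D1:**
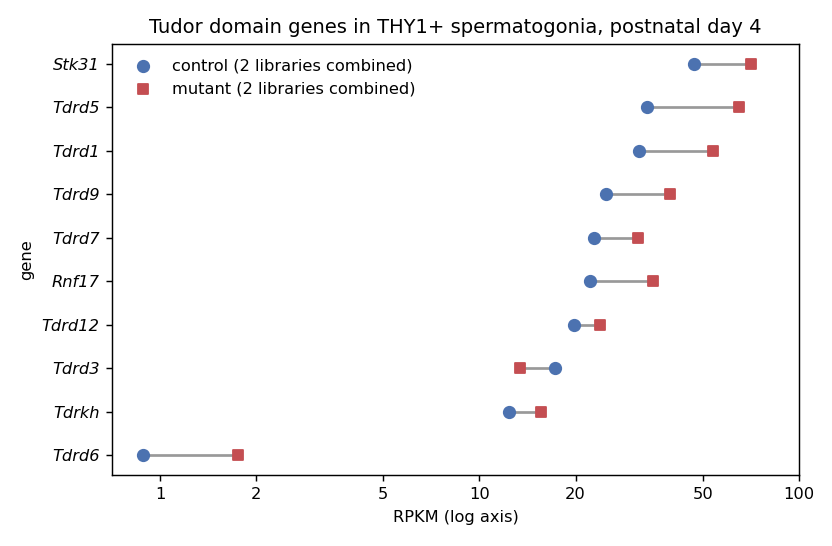
RPKM of each of the 10 members (log axis) in control (circles) and mutant (squares), 1 combined value per genotype joined by a line, with no error bars because the libraries were combined. The square lies to the right of the circle for every gene except Tdrd3, and Stk31 is the most abundant member in both genotypes at 46.9 and 70.9 RPKM.

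**Figure D2:**
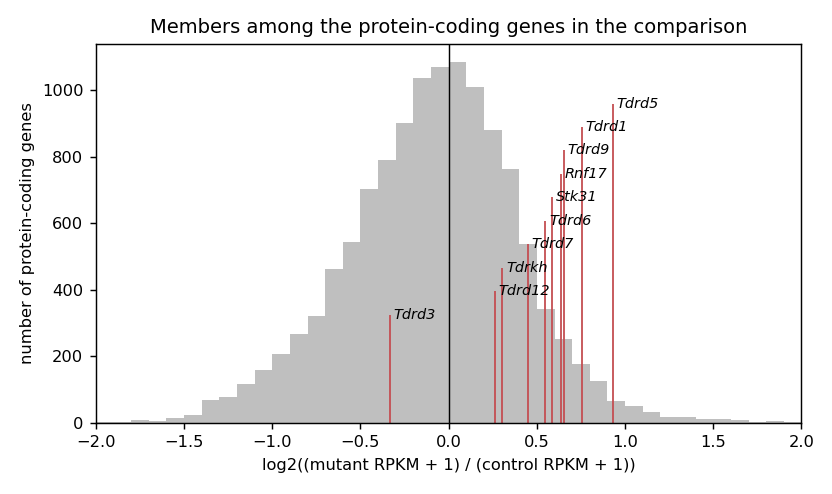
Histogram of log2((mutant RPKM + 1) / (control RPKM + 1)) over the protein-coding genes in the comparison, with a line for each member (line heights only separate the labels, and genes beyond the axis are not drawn). Tdrd5 lies farthest to the right at 0.93, and Tdrd3 is the 1 member left of 0, at -0.33.

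Among the members that work on piRNA production at the mitochondrial surface, Tdrd1 stood apart from Tdrkh and Tdrd12. Tdrd1, a scaffold with several Tudor domains that binds methylated PIWIL2 (chromosome 19, 56826209 to 56870012, plus strand, GRCm38), was at 31.5 (control) and 53.9 RPKM (mutant). The ratio was 1.71 (95% counting interval 1.66 to 1.75) and the log2 difference 0.75, above that of 96.5% of protein-coding genes. Tdrkh, a mitochondrial protein with KH and Tudor domains that takes part in trimming piRNA 3' ends (chromosome 3, GENCODE span 94413273 to 94434668, plus strand), was at 12.4 and 15.6 RPKM. Its ratio of 1.25 (1.20 to 1.31) gave a log2 difference of 0.30. Oaz3, a gene on the opposite strand, covers 36.7% of the exonic bases annotated for Tdrkh, and it was itself at 1.28 and 2.24 RPKM. Whether the counting used strand (not given in the sources used here) decides if the Tdrkh value can hold reads of both. Tdrd12, a helicase-like Tudor protein needed for secondary piRNAs (chromosome 7, 35469098 to 35537745, minus strand), was at 19.8 and 23.9 RPKM, a ratio of 1.21 (1.16 to 1.26) and a log2 difference of 0.26. The level of Tdrd1 relative to Tdrkh thereby went from 2.54 in control to 3.46 in mutant.

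Tdrd9 encodes a helicase with a Tudor domain that acts with the nuclear PIWI protein PIWIL4 in piP-bodies (chromosome 12, 111971559 to 112068854, plus strand). It was at 24.9 (control) and 39.6 RPKM (mutant), a ratio of 1.59 (1.55 to 1.65) and a log2 difference of 0.65. The other helicase-related member, Tdrd12, had the smaller difference, and the Tdrd9 level was 1.26 times that of Tdrd12 in control and 1.66 times in mutant. Piwil4 itself was at 5.94 and 14.7 RPKM, a ratio of 2.48.

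The members that carry LOTUS domains, a fold that recruits germline RNA helicases, are Tdrd5 and Tdrd7. Tdrd5, needed for transposon silencing and for chromatoid body assembly (chromosome 1, GENCODE span 156255296 to 156303664, minus strand), had the largest log2 difference of the family. It was at 33.6 (control) and 65.0 RPKM (mutant), a ratio of 1.93 (1.88 to 1.99) and a log2 difference of 0.93, above that of 98.3% of protein-coding genes. Tdrd7, a chromatoid body component also known from the lens (chromosome 4, 45965334 to 46034761, plus strand), was at 22.8 and 31.5 RPKM, with a ratio of 1.38 (1.33 to 1.44) and a log2 difference of 0.45. Tdrd5 was at 1.47 times the Tdrd7 level in control and 2.07 times in mutant. Tdrd5 also drew nearer to Stk31, from 0.716 to 0.917 of its level.

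The remaining germline members, Stk31, Rnf17 and Tdrd6, were measured at very different levels. Stk31, which joins a Tudor domain to a kinase-like domain (chromosome 6, 49395604 to 49469501, plus strand), was the most abundant member, at 46.9 (control) and 70.9 RPKM (mutant). Its ratio was 1.51 (1.47 to 1.56) and its log2 difference 0.59. Rnf17, a RING and Tudor protein of spermatocyte and spermatid granules (chromosome 14, GENCODE span 56402581 to 56525032, plus strand), was at 22.2 and 35.0 RPKM, with a ratio of 1.58 (1.53 to 1.63) and a log2 difference of 0.64. Tdrd6, a large scaffold of the chromatoid body (chromosome 17, 43615335 to 43630299, minus strand), was the lowest member by far, at 0.882 and 1.75 RPKM. About 339 control and 688 mutant reads stood behind these values, and the plain ratio of 1.99 (1.74 to 2.27) was the highest of the family, with an interval that overlaps that of Tdrd5. Its log2 difference was 0.55 with the pseudocount of 1 RPKM and 0.92 with one of 0.1 RPKM. The level of Tdrd6 was above that of 7.04% of the genes in the comparison in control, and that of Stk31 above 85.6%.

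Tdrd3 differs from the rest in its biology: it is broadly expressed, binds asymmetrically methylated arginine on histones and RNA polymerase II, and partners the topoisomerase TOP3B. It lies on chromosome 14 (87416639 to 87545504 in GENCODE, plus strand). Its value was 17.2 (control) and 13.4 RPKM (mutant), a ratio of 0.781 (0.749 to 0.815) and a log2 difference of -0.33. The difference was below 0 under all 8 alternative settings, from -0.73 to -0.29, though the filter settings and the sum of entries cannot change it. A pseudocount cannot change its sign, and the germ cell rescaling can only lower it. Only quantile normalization (-0.29) and removal of the length and GC trend (-0.51) could have turned it.

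The order of the levels was nearly the same in both genotypes. From the highest to the lowest it was Stk31, Tdrd5, Tdrd1, Tdrd9, Tdrd7, Rnf17, Tdrd12, Tdrd3, Tdrkh and Tdrd6 in control. In the mutant Rnf17 stood before Tdrd7, and Tdrkh before Tdrd3. Tdrd7 and Rnf17 in control did not differ beyond counting error (ratio 1.03, 95% interval 0.988 to 1.07 from the Poisson error of the log ratio of reads), while all other neighbours in either order did. Stk31, Tdrd5 and Tdrd1 together held 48.3% of the family's summed RPKM in control and 54.1% in mutant. With 1 value per genotype, no likeness of pattern to other genes could be measured.

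Promoters are shown for 5 members, those with the largest differences or levels and Tdrd3 as the member with the opposite sign, because the germline members had higher values together. The sequences are the 250 bases before a RefSeq start site (GRCm38.p6), 5′ to 3′ on the gene's strand, and 8 of the 10 members were matched by symbol in the RefSeq promoter table. Capitals mark CACGTG, an E-box, and AACNGNC, a MYB-type motif, on either strand. The windows are chr1:156303349-156303598 (minus strand) for Tdrd5, chr19:56825959-56826208 for Tdrd1, chr12:111971309-111971558 for Tdrd9, chr6:49395354-49395603 for Stk31 and chr14:87416333-87416582 for Tdrd3, the last 4 on the plus strand. The Tdrd5 start lies 1618 bp from the 5′ end of its entry, a span shared with other entries, and its window lies inside the GENCODE span of the gene.
Tdrd5: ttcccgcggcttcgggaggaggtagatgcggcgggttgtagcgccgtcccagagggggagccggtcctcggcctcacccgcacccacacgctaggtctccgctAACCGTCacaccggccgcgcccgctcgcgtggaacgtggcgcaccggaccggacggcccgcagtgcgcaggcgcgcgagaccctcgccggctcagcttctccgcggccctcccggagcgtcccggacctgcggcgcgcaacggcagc
Tdrd1: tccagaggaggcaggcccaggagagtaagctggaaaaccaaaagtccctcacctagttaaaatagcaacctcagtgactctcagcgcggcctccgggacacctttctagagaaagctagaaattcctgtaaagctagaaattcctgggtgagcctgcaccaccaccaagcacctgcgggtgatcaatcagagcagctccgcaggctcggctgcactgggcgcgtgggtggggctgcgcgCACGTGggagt
Tdrd9: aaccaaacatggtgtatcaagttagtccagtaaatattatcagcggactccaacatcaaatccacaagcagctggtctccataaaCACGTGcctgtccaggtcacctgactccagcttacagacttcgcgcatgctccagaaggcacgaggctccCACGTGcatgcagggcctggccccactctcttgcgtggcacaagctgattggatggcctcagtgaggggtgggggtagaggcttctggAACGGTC
Stk31: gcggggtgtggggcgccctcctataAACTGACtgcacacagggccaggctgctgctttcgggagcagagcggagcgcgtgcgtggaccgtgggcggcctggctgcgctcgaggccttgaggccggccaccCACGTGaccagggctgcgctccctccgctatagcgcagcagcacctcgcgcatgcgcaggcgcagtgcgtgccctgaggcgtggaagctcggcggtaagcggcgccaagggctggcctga
Tdrd3: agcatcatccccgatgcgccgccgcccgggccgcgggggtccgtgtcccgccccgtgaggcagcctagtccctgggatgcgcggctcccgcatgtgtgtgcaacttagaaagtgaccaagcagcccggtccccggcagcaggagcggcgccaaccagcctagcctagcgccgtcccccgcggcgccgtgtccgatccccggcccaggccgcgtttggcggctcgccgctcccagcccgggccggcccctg

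A CACGTG stood in 3 of the 8 promoters, those of Stk31, Tdrd1 and Tdrd9, the last with 2 copies, while 8.17% of the 12850 promoters of genes in the comparison and 6.02% of all 32841 promoters held one. AACNGNC stood in 6 of the 8, against 27.9% and 27.7%. Tdrd1 lacked this motif, and the Tdrd3 window held neither. The E2F-type motif GGCGGGA stood in 1 of 8, that of Tdrd3 (17.1% of the promoters of genes in the comparison). AGGTCA, the half-site of nuclear receptors, stood in 2, those of Tdrd7 and Tdrd9 (11.04%), and TGACGTCA, a cAMP response element, in 0 (2.46%). Each motif was searched on its own on both strands, so matches of different motifs may overlap. The ratio of observed to expected CpG ran from 0.219 in Tdrd7 to 1.14 in Tdrd5, with a median of 0.679 over 1 start per member, beside 0.696 over all promoters of genes in the comparison. Tdrd7, Tdrd1, Stk31 and Tdrd12 have more than 1 start in the table, and the one nearest the 5′ end of the gene's entry was used. Over all 14 starts CACGTG stood in 5 and AACNGNC in 11, and the median CpG ratio was 0.829. Windows of starts close to each other overlap, so the same site can be counted more than once. The 5 with CACGTG were again those of Stk31, Tdrd1 and Tdrd9 only. The low CpG ratio of Tdrd7 depends on the start, since its others had 1.20 and 0.866. These matches describe letters in the windows and were not tested as sites.

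Other genes of the pathway gave the setting for these values. Over all genes in the comparison, 50.4% lay above 0, 4.4% were 2-fold or more higher and 4.35% 2-fold or more lower. Of 18 piRNA partners, 17 lay above 0, 3 of them 2-fold or more higher and none 2-fold lower, with a median log2 difference of 0.63. The 3 were Spocd1 (1.57 and 7.24 RPKM) and Dnmt3l (0.74 and 4.19 RPKM), which serve de novo DNA methylation in fetal germ cells, and Piwil4. Dnmt3l entered through its mutant value alone. Henmt1 (7.11 and 14.5 RPKM) had a plain ratio of 2.04 but a log2 difference of 0.93. The most abundant partners were Mael (159 and 219 RPKM), a germ granule protein, and Fkbp6 (161 and 192 RPKM), a co-chaperone of piRNA production. Pld6, the mitochondrial nuclease that cuts piRNA precursors, was at 7.70 and 6.92 RPKM and was the 1 partner below 0, and Exd1 was at 6.64 and 7.04 RPKM. Piwil2, chosen after its values were seen as the PIWI protein that TDRD1 binds, was at 61.6 and 98.0 RPKM, a ratio of 1.59 beside 1.71 for Tdrd1.

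Genes of arginine methylation, which makes the marks read by Tudor domains, lay on both sides of 0. Of 6 measured on their own, the methyltransferase genes Prmt1, Prmt5, Prmt7 and Prmt9 and the PRMT5 adaptor genes Riok1 and Clns1a, 3 lay above 0 and 3 below, none by 2-fold, with a median of 0.07. Of all genes, 50.4% lay above 0, and 4.4% were higher and 4.35% lower by 2-fold or more. Prmt5, which makes the symmetric mark on PIWI proteins, was at 23.7 and 31.2 RPKM, and Riok1 at 11.9 and 13.8 RPKM. Prmt7 was at 71.4 and 80.3 RPKM, Prmt1 at 74.2 and 61.9 RPKM and Prmt9 at 21.1 and 17.3 RPKM. The PRMT5 partner gene Wdr77 shares an entry with other genes and was not used.

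Tudor domain genes outside the germline family were nearer to 0. Of 19 in the comparison, 14 lay above 0 and none was past 2-fold, with a median of 0.13. Of all genes, 50.4% lay above 0, and 4.4% were higher and 4.35% lower by 2-fold or more. Arid4b, a subunit of a histone deacetylase complex, was at 20.7 and 39.2 RPKM. Mtf2, a Polycomb accessory factor, was at 90.9 and 160 RPKM, and its relative Phf19 at 6.96 and 3.92 RPKM. Uhrf1, which maintains DNA methylation at replication, was at 118 and 77.1 RPKM, and Snd1, a nuclease with a Tudor domain, at 109 and 121 RPKM. This median turned to -0.29 after the germ cell rescaling, and that of the arginine methylation genes to -0.35, a setting under which the median of all genes was -0.36.

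**Figure D3:**
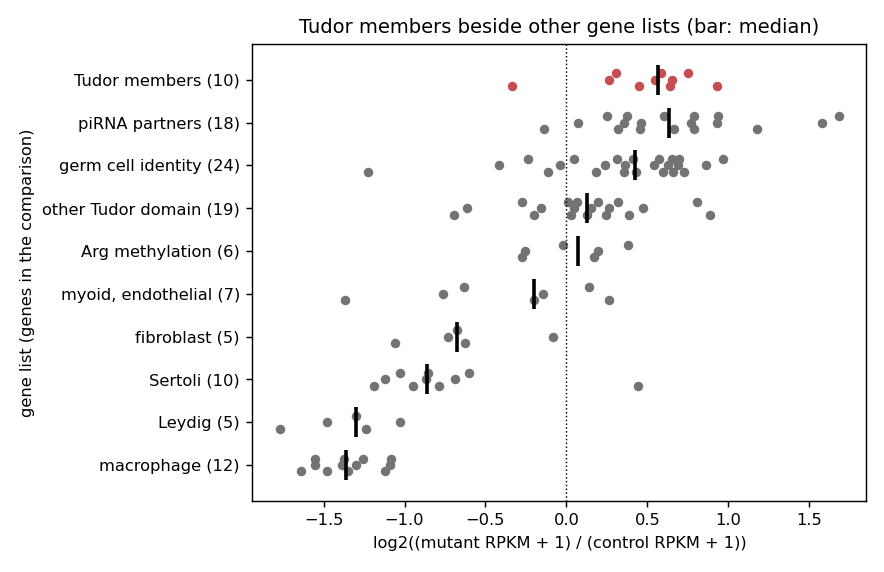
Log2((mutant RPKM + 1) / (control RPKM + 1)) of each gene in the comparison, 1 point per gene with the points of a list spread vertically for legibility, and a bar at the list's median. Tudor members (median 0.57), piRNA partners (0.63) and germ cell identity genes (0.42) lie mostly right of 0, while macrophage genes (-1.36) and Leydig genes (-1.30) lie left of it.

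The family was also set against germ cell identity genes. The 24 genes of that list in the comparison had a median of 0.42, with 19 above 0, against 50.4% of all genes. Above this median lay 7 Tudor members. The list holds no Tudor member and shares Ddx4 with the piRNA partners. Its 5 genes below 0 were Sall4 (72.3 and 30.3 RPKM, log2 difference -1.23), Utf1, Lin28a, Nr6a1 and Kdm1b, named after their values were seen. Sall4 was the 1 gene of the list past 2-fold on the log2 scale with the pseudocount. Dppa3 (1.30 and 3.50 RPKM) had a plain ratio of 2.69 and a log2 difference of 0.97. The family's median exceeded that of the list by 0.15 with the values as deposited. After quantile normalization it exceeded it by 0.03, with 5 members above the list's median. The gap was -0.02 with the trend removed, where 3 members were above the list's median. Relative to Ddx4, the germ cell helicase VASA, the level of Tdrd5 went from 0.379 to 0.571 and that of Tdrd1 from 0.356 to 0.474. Tdrkh (0.140 and 0.137) and Tdrd12 (0.223 and 0.210) were lower relative to Ddx4 in the mutant, as was Tdrd3 (0.194 and 0.118).

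**Figure D4:**
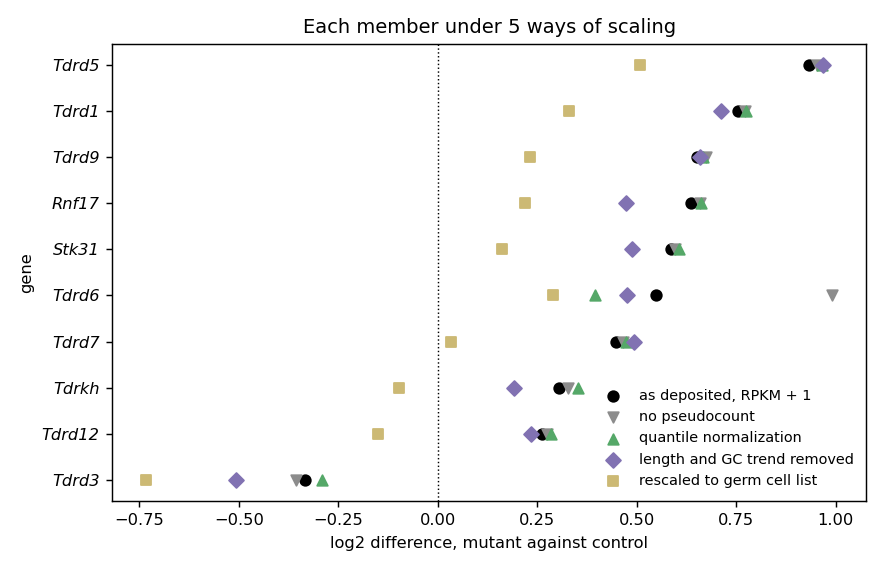
Log2 difference of each member under 5 ways of scaling, 1 marker per setting. Rescaling to the germ cell list moves all 10 members to the left and takes Tdrkh and Tdrd12 below 0 (-0.10 and -0.15), and Tdrd6 moves most between pseudocounts (0.55 with 1 RPKM, 0.99 with none).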

How the data were processed

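RNA of THY1+ spermatogonia was sequenced in 4 libraries. Reads were aligned with TopHat2 2.0.11 to GRCm38, per the submitters' processing notes, with a counting program and annotation not given in the sources used here. Deposited values are RPKM, per the file headers, with 1 column for both libraries of each genotype. Only a description was therefore made, with Python 3.11.15, numpy 2.4.6, pandas 2.3.3 and scipy 1.17.1. Entries needed an RPKM of 1 in either genotype: of 17278, 774 with several symbols and 31 repeats were left out. Prmt9 and Sgf29 were found under older symbols. The members and lists were chosen with earlier results of these data known. All members were named; of other lists, genes past 2-fold, the 2 highest, lowest and most abundant (of marker lists only the last). Transcripts and spans come from GENCODE M21 (GRCm38). Starts in the table count from 0, so 1 was added, and overlapping entries share 1 span there. Read depth was taken from genes with 1 transcript of at least 1000 nt, of which 85.4% of 1490 low control and 90.8% of 1477 low mutant values lay within 0.1 of a whole read. The length and GC trend was a quadratic surface over protein-coding genes, tested on simulated data. A planned protein comparison was not run.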

Additional observations from a re-analysis of the deposited data

How the results depend on the processing

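No paired analysis was possible because the table has 1 combined column per genotype, and leaving out a replicate could not be run for the same reason. The 8 planned settings were pseudocounts of 0.1 and 0.5, no filter, an RPKM of at least 5, quantile normalization, the rescaling of the mutant values by 0.741 to the germ cell identity list, removal of the length and GC trend, and the sum of repeated entries. The number of members past 2-fold was 0 under each. The members' median log2 difference of 0.57 ran from 0.48 to 0.63 under all of them but the germ cell rescaling, where it was 0.19 while the median of all genes was -0.36. Without Tdrd6, an exclusion added after the values were seen, it was 0.59. Of 89 member values under these settings and with no pseudocount, 72 moved by at most 0.1. That number includes values that could not move: a filter does not alter a member's difference, and no member has repeated entries to sum. Of the 89, 2 changed sign, Tdrd12 (-0.15) and Tdrkh (-0.10), both under the germ cell rescaling. The rescaling also turned the medians of other Tudor domain genes (-0.29) and arginine methylation genes (-0.35). Depth limits Tdrd6 most.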

Other observations

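Genes next to the family's members on the chromosome also tended to have higher mutant values. The nearest protein-coding gene in the comparison on each side that did not overlap a member gave 20 neighbours, at 1729 to 7786884 bp. Of these, 14 lay above 0, against 44.2% of protein-coding genes. The neighbours' median log2 difference was 0.45 (-0.74 to 1.08), beside -0.06 for protein-coding genes. Among the 13 neighbours that reached 5 RPKM in control or mutant, 9 lay above 0, with a median of 0.37 beside -0.07 and 43.8% above 0 for protein-coding genes at that level. Examples were Ccdc186 (18.2 and 31.9 RPKM), 4019 bp from Tdrd1, and Ncbp1, a cap-binding protein gene (44.1 and 74.9 RPKM), 4174 bp from Tdrd7. Mpp6 (51.1 and 73.8 RPKM) was the neighbour after Stk31, but at a distance of 640740 bp. Both neighbours of Tdrd3, Sugt1 (27.0 and 19.4 RPKM) and Pcdh9 (2.31 and 1.51 RPKM), lay below 0 like Tdrd3 itself, at distances of 7786884 and 5468037 bp. Nudt19 beside Tdrd12 was at 21.7 and 12.5 RPKM. This comparison was chosen after the values were seen and was not tested.

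The table lists 9 further entries in the same spans as members. Gm24392, in the span of Rnf17, was listed at 0 in control and at 115 RPKM in mutant. Its own length and read number were not looked up, and in a short entry a few reads can give a high RPKM. Gm17060, in the span of Stk31, was at 2.28 and 7.14 RPKM. A430050A11Rik in the Tdrd5 span was at 1.06 and 3.44 RPKM. Their share in the members' values was not tested.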
